A study of Homo sapiens with 30 samples.

Results

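The genes described here are 10 genes of the extracellular matrix: SPARC, POSTN, TNC, MFAP5 and FRAS1, which encode proteins secreted around cells, and the lysyl oxidase family, LOX, LOXL1, LOXL2, LOXL3 and LOXL4. They were taken as the rows that carry exactly these names, 10 of the 58288 genes in the table of the first experiment and 9 of the 20073 in the table of the second. POSTN in the second experiment was not analysed here. SPARC (in sphere medium) and POSTN, MFAP5 and FRAS1 (in full medium) were chosen by their measured levels in cells with UTX against cells with an empty vector in the first experiment, so all values of that contrast are given as a description without a test. Earlier results of that contrast were also known when the other members were chosen. Counts of members in comparisons that share its libraries are therefore not independent of the choice. For POSTN, MFAP5 and FRAS1 no test is given in any comparison that uses the full-medium libraries with the empty vector or UTX. For SPARC none is given where the sphere-medium libraries with the empty vector or UTX enter. The falls of POSTN and FRAS1 from full to sphere medium in HEAA cells are also given as a description.

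All 30 libraries came from UMUC1, an established line of human bladder cancer cells that carries an inactivating mutation in UTX, the histone demethylase encoded by KDM6A, and were harvested on day 3. In the first experiment the cells stably carried a pSIN-puro vector that was empty (EV), held wild type UTX, or held UTX with H1146A and E1148A (HEAA), changes in the catalytic site of the demethylase. They were grown in full medium with 10% fetal bovine serum (EV_full, UTX_full, HEAA_full) or in serum-free sphere medium with B27, FGF2 and EGF (20 ng/ml each) (EV_sphere, UTX_sphere, HEAA_sphere). In the second experiment all cells were in full medium and carried pBabe-puro with wild type FGFR3 or FGFR3 S249C, a receptor tyrosine kinase and its bladder cancer mutant, together with pCDH-blasticidin that was empty or held wild type UTX (EV_FGFR3WT, UTX_FGFR3WT, EV_FGFR3S249C, UTX_FGFR3S249C). Each of the 10 groups had 3 libraries. The labels do not say whether these were separate cultures, which promoters drove the inserts or whether the lines were clones or pools. A p-value here therefore reflects only the spread among these libraries, which may be technical.

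Matricellular proteins such as SPARC, periostin (POSTN) and tenascin-C (TNC) are secreted into the matrix and alter how cells adhere and respond to growth factors, without forming the main load-bearing fibres. MFAP5 is a protein of the fibrillin microfibrils, and FRAS1 is a basement membrane protein that anchors epithelium to the tissue beneath. Lysyl oxidases are copper-dependent enzymes that oxidise lysines of collagen and elastin, the first chemical step of the crosslinks that stiffen matrix, and LOX is also a well-known target of the hypoxia-inducible factors.

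The sequences just before the start sites are shown for LOXL4, FRAS1 and POSTN, which were high together in full medium with either UTX, and for LOX, which had the opposite order. They are the 250 bases before the start from RefSeq on GRCh38.p14, 5′ to 3′ on the strand of the gene, in lower case with matches to searched motifs in capitals. LOXL4 is at chr10:98268195-98268444 on the minus strand, FRAS1 at chr4:78057073-78057322 on the plus strand, POSTN at chr13:37598769-37599018 on the minus strand and the first listed start of LOX at chr5:122078260-122078509 on the minus strand.
LOXL4: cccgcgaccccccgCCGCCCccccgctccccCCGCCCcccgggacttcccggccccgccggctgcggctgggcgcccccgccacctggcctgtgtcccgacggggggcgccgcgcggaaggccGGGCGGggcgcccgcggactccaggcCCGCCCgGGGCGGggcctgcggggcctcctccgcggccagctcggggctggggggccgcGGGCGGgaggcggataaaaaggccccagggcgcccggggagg
FRAS1: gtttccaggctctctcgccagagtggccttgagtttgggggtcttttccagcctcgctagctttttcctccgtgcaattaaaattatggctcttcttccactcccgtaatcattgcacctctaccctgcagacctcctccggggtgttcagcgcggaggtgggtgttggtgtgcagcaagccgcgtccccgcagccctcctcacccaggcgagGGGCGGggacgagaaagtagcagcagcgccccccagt
POSTN: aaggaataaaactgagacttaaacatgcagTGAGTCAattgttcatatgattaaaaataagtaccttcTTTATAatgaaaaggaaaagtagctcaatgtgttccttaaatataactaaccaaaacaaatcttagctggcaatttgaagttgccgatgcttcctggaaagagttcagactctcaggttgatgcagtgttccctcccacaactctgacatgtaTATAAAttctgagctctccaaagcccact
LOX: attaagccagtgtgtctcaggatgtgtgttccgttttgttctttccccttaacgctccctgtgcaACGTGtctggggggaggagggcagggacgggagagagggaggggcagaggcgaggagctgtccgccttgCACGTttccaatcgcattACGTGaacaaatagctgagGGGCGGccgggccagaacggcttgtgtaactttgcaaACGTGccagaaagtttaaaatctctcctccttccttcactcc

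Motifs were searched on both strands, and no matches overlapped. The LOXL4 window held 6 GC boxes (GGGCGG, the core of an SP1 site) and 86.4% G and C, against a median of 58% over 35116 promoters, of which 42.6% held a GC box. The FRAS1 window held 1 GC box. The POSTN window held 1 AP-1 motif (TGANTCA), present in 6.57% of promoters, and 2 TATA boxes (TATAAA), present in 10.7%, at 36.4% G and C. The LOX window held 4 copies of ACGTG, the core letters of a hypoxia response element, present in 18.5% of promoters, and 1 GC box. The letters GGAATG, the core of a TEAD site, were in 11.9% of promoters and in none of these 4 windows. These matches describe the letters only. Of the 10 genes, 8 had an entry, and MFAP5 and LOXL2 did not.

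The authors counted on hg19. On another build, GRCh38 with GENCODE v29, the genes lay at chr5:151661096-151687165 (SPARC), chr13:37562583-37598844 (POSTN), chr9:115019578-115118257 (TNC), chr12:8637346-8662888 (MFAP5), chr4:78057570-78544269 (FRAS1), chr5:122063195-122078360 (LOX), chr15:73925989-73952137 (LOXL1), chr2:74532414-74555690 (LOXL3), chr10:98247690-98268250 (LOXL4) and, for LOXL2, on chromosome 8. Several overlap another gene on the opposite strand: SPARC and CLMAT3, TNC and DEC1, LOX and SRFBP1, LOXL1 and LOXL1-AS1, LOXL3 with HTRA2 and DOK1, and LOXL4 and AL139241.1. LOXL2 overlaps ENTPD4 on its own strand and AC090197.1 on the other, and MFAP5 and FRAS1 overlap pseudogenes. The outermost starts in GENCODE differ from the RefSeq starts used for the windows above, so that parts of the POSTN, LOX and LOXL4 windows lie inside the GENCODE gene. The strand setting of the counting is not stated, so reads of such partners cannot be told apart and these values are uncertain to that extent.

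Library totals ran from 23749352 to 40111234 counts (first experiment) and from 21672408 to 28290664 (second experiment). Levels are CPM, a gene's counts relative to the library total after scaling with TMM factors, as mean ± SD over 3 libraries. KDM6A, the gene in the UTX vectors, rose from 17.4 ± 0.745 CPM in EV_full to 579 ± 12.7 in UTX_full and 694 ± 7.34 in HEAA_full, and from 8.18 ± 0.784 in EV_sphere to 861 ± 14.9 and 943 ± 15.3 in UTX_sphere and HEAA_sphere. In the second experiment it was at 15.8 ± 1.02 and 11.6 ± 1.36 CPM without UTX and at 824 ± 73.2 and 862 ± 141 with it. All 10 urothelial and epithelial markers on a list of 10 were above 1 CPM in every group, led by KRT5 or KRT8. Of 9 fibroblast markers, 1 to 3 were above 1 CPM in each group of the first experiment, and their summed level is given with the comparison of the media. In the second experiment 5 of the 9 had a row and summed to 22 to 32.4 CPM. A list of 8 leukocyte and endothelial markers summed to 6.06 to 19.8 CPM over the groups of the first and 7.18 to 12.5 CPM over those of the second experiment, led by CD68.

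In full medium the cells with UTX or HEAA had far less SPARC and LOX and more LOXL4, TNC, MFAP5, FRAS1 and POSTN than cells with the empty vector. Both comparisons use the same 3 EV_full libraries, so the values stand side by side and are not independent of each other. With UTX, all 10 genes had groups that did not overlap, where 63.6% of 19629 tested genes had such groups. Earlier results of this contrast were known when the members were chosen. Over all genes, 57.7% passed the threshold of an adjusted p under 0.05 in edgeR's quasi-likelihood test there, which is not given for the members. With HEAA, 7 of 7 tested members passed, 4 higher and 3 lower, where 48.5% of all tested genes did. As EV_full enters both contrasts, this count is not independent of the choice of members. The plot of levels by library shows the members over all 6 groups of the first experiment.

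**Figure D1:**
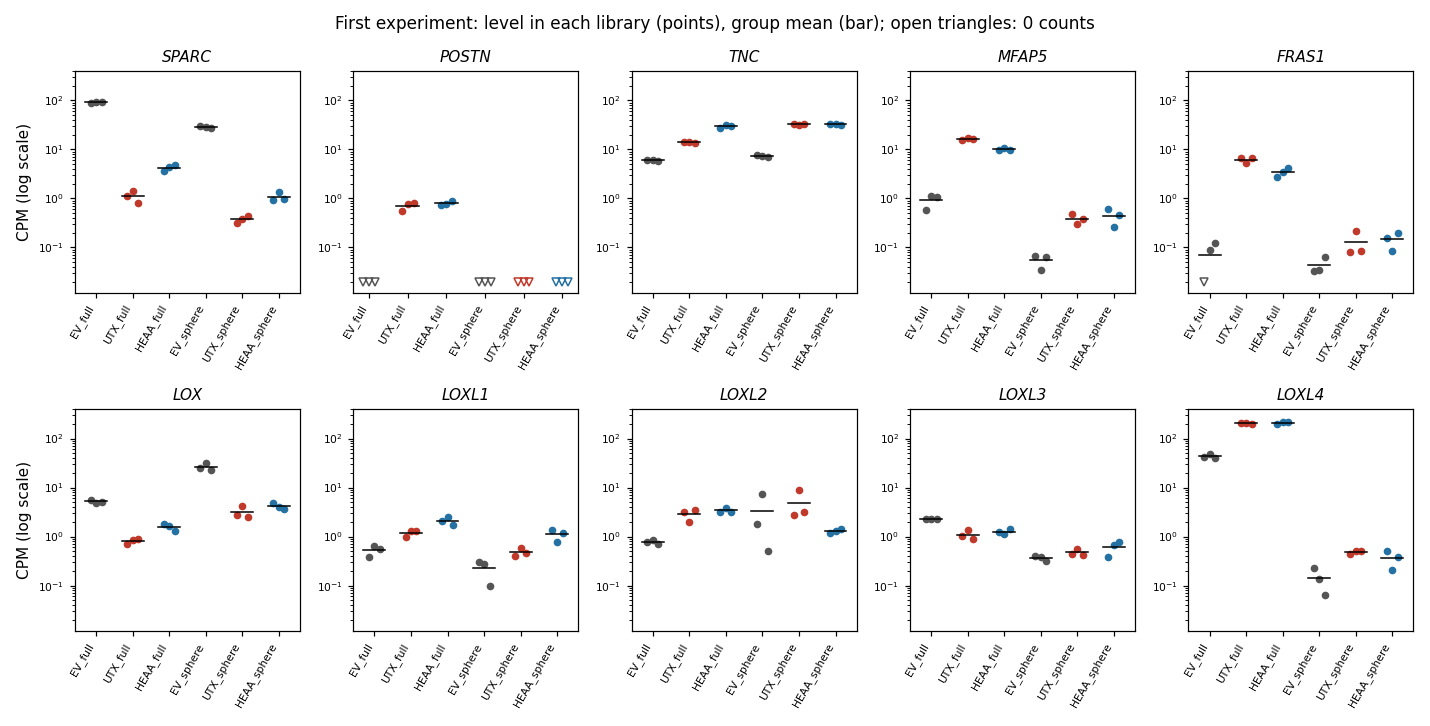
Level of each gene in every library of the first experiment, in CPM on a log scale, with group means as bars and libraries without a count as open triangles (grey EV, red UTX, blue HEAA). SPARC is highest in EV_full (90.5 CPM), LOX in EV_sphere (26.6 CPM) and LOXL4 in the full-medium groups with either UTX (206 and 211 CPM).

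SPARC, a collagen-binding glycoprotein, was at 87.1, 93.9 and 90.5 CPM in EV_full, at 1.13, 1.43 and 0.817 CPM in UTX_full and at 3.60, 4.28 and 4.71 CPM in HEAA_full. The 3 groups did not overlap. The log2 fold change was -6.35 with UTX, without a test, and -4.43 ± 0.08 with HEAA (edgeR, adjusted p = 1.15e-20), a 21.5-fold fall. Here and below, ± on a log2 fold change is an approximate error worked back from the test statistic. UTX_full lay 3.79-fold under HEAA_full (log2 fold change -1.92 ± 0.15, edgeR adjusted p = 1.31e-08). In bulk RNA, fewer cells with SPARC and less SPARC per cell cannot be told apart, which holds for every gene here.

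POSTN, a ligand of integrins, had 0 counts in all 3 EV_full libraries. It had 19, 19 and 26 counts in UTX_full (0.552, 0.756 and 0.817 CPM) and 21, 21 and 28 in HEAA_full (0.741, 0.769 and 0.890 CPM). Against a floor of 3 counts over the EV_full group, that is at least 24-fold higher with UTX and at least 27.5-fold higher with HEAA, given without a test. The 2 UTX groups overlapped.

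TNC, a large matrix glycoprotein of remodelling tissue, was at 6.16, 6.10 and 5.91 CPM in EV_full, at 14.0, 14.0 and 13.6 in UTX_full and at 27.8, 31.2 and 29.9 in HEAA_full. All 3 groups were apart, with HEAA highest. The log2 fold change against EV_full was 1.20 with UTX, without a test, and 2.29 ± 0.06 with HEAA (edgeR, adjusted p = 1.09e-17), and UTX_full was lower than HEAA_full by 1.09 on the log2 scale (edgeR, adjusted p = 5.86e-12).

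MFAP5 was at 0.567, 1.11 and 1.04 CPM in EV_full, at 15.6, 16.7 and 16.0 in UTX_full and at 9.81, 10.4 and 9.82 in HEAA_full. FRAS1 had 0, 3 and 5 counts in EV_full, and was at 6.57, 5.33 and 6.69 CPM in UTX_full and 2.68, 3.48 and 4.13 CPM in HEAA_full. For both genes the order was EV_full, then HEAA_full, then UTX_full, without overlap. The log2 fold changes, without a test, were 4.11 and 3.42 for MFAP5 and 6.25 and 5.40 for FRAS1, with UTX and HEAA in that order.

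Of the crosslinking enzymes, LOXL4 was at 41.9, 48.2 and 40.4 CPM in EV_full, at 207, 212 and 200 CPM in UTX_full and at 201, 219 and 214 CPM in HEAA_full. Either UTX group was above the vector, and they overlapped each other. LOXL4 rose with HEAA by 2.28 ± 0.06 on the log2 scale (edgeR, adjusted p = 6.30e-18), beside 2.24 with UTX, and UTX_full minus HEAA_full was -0.04 ± 0.05 (edgeR, adjusted p = 0.69). LOX went the other way, at 5.70, 4.90 and 5.09 CPM in EV_full, 0.697, 0.835 and 0.912 in UTX_full and 1.77, 1.65 and 1.30 in HEAA_full. It fell with HEAA by 1.73 ± 0.19 on the log2 scale (edgeR, adjusted p = 8.62e-08), and the description for UTX is -2.68.

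The other 3 lysyl oxidases were at low levels in full medium. LOXL1 was at 0.527 ± 0.129 CPM in EV_full, 1.19 ± 0.180 in UTX_full and 2.10 ± 0.368 in HEAA_full, and rose with HEAA (log2 fold change 1.96, edgeR adjusted p = 2.21e-06). LOXL2 was at 0.775 ± 0.0777, 2.85 ± 0.795 and 3.41 ± 0.313 CPM in the same order and also rose with HEAA (2.14, adjusted p = 0.00727). LOXL3 fell with HEAA (-0.85, adjusted p = 0.00121), from 2.29 ± 0.0405 to 1.27 ± 0.150 CPM, with 1.09 ± 0.239 CPM in UTX_full.

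Between UTX_full and HEAA_full, 4 of 7 tested members differed, where 21.4% of all genes did. All 4 were lower with UTX: SPARC, TNC, LOX (log2 fold change -0.94, edgeR adjusted p = 0.0129) and LOXL1 (-0.81, adjusted p = 0.019). The members without a test here did not share that direction. MFAP5 (0.68) and FRAS1 (0.85) were higher with UTX without overlap, and POSTN overlapped (-0.18). The calls for LOX and LOXL1 were lost when UTX_full replicate 1 was left out (adjusted p = 0.0699 and 0.0992) or HEAA_full replicate 1 was (0.0613 and 0.0596), and that for LOXL1 also without HEAA_full replicate 2 (0.103).

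In sphere medium the SPARC and LOX differences from the vector were of the same direction and TNC was higher with either UTX, while POSTN was at 0 counts in all 9 libraries and the levels of MFAP5, FRAS1 and LOXL4 were low in every group. With UTX, 8 of the 10 members had groups that did not overlap, again a description, where 54.6% of all genes had such groups and 48.4% passed the threshold. With HEAA, 5 of 8 tested members passed, 4 higher and 1 lower, where 41.4% of all genes did. Fitted on the 2 groups alone, 3 members passed.

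SPARC was at 30.1, 28.4 and 27.7 CPM in EV_sphere, at 0.318, 0.384 and 0.430 CPM in UTX_sphere and at 0.908, 1.32 and 0.974 CPM in HEAA_sphere, without overlap. The log2 fold changes against the vector were -6.24 and -4.79, without a test. TNC was at 7.68, 7.31 and 6.86 CPM in EV_sphere, at 33.3, 31.4 and 33.6 in UTX_sphere and at 33.6, 33.0 and 31.0 in HEAA_sphere. It rose with HEAA by 2.16 ± 0.06 on the log2 scale (edgeR, adjusted p = 3.24e-17), and UTX_sphere and HEAA_sphere overlapped (difference 0.01 ± 0.05, adjusted p = 0.927).

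LOX was at 25.1, 31.6 and 23.1 CPM in EV_sphere, 2.78, 4.23 and 2.54 in UTX_sphere and 4.83, 4.08 and 3.70 in HEAA_sphere. It fell with HEAA by 2.65 ± 0.14 on the log2 scale (edgeR, adjusted p = 1.14e-12) and was -3.06 with UTX. The fall with HEAA was larger in sphere than in full medium by 0.91 ± 0.24 (interaction term, edgeR adjusted p = 0.00601).

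The low genes rest on few counts. MFAP5 had 2, 1 and 2 counts in EV_sphere, 12, 7 and 9 in UTX_sphere and 23, 6 and 14 in HEAA_sphere, and rose with HEAA (log2 fold change 2.95 ± 0.48, edgeR adjusted p = 2.88e-05). FRAS1 had 4, 9 and 14 counts over the 3 libraries of EV_sphere, UTX_sphere and HEAA_sphere, and its difference with HEAA did not pass (adjusted p = 0.0643). LOXL4 had 13, 35 and 37 counts in the same order and passed with HEAA (1.43 ± 0.48, adjusted p = 0.0194), although HEAA_sphere overlapped the vector. That call was lost without EV_sphere replicate 2 (adjusted p = 0.051) or 3 (0.0931) or HEAA_sphere replicate 1 (0.13). LOXL1 rose from 0.225 ± 0.112 to 1.11 ± 0.304 CPM with HEAA (2.31 ± 0.33, adjusted p = 7.26e-06).

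Between UTX_sphere and HEAA_sphere, 2 of 8 tested members passed, 1 higher and 1 lower, where 20.0% of all genes did. LOXL1 was lower with UTX (log2 fold change -1.20 ± 0.30, edgeR adjusted p = 0.0073) and LOXL2 higher (1.92 ± 0.58, adjusted p = 0.0216). The LOXL2 call was lost without UTX_sphere replicate 2 (1.16, adjusted p = 0.227) and without any one of the HEAA_sphere replicates (0.0747, 0.0554 and 0.056). Without replicate 2 of both EV_sphere and UTX_sphere, which stand apart in LOXL2, it passed at 1.15 (adjusted p = 0.014), and 3 members passed in all. The LOXL1 call was kept with each library left out.

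For the effect of HEAA by medium, 3 of 6 tested members passed, 1 higher and 2 lower, where 33.0% of all genes did. Besides LOX these were LOXL3 (1.55 ± 0.35, edgeR adjusted p = 0.00152) and LOXL2 (-3.47 ± 0.86, adjusted p = 0.00347). LOXL3 fell with HEAA in full medium, and in sphere medium it was at 0.401, 0.383 and 0.324 CPM with the vector and 0.389, 0.679 and 0.779 CPM with HEAA, which overlapped (0.70 ± 0.29, adjusted p = 0.0655).

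LOXL2 in sphere medium turned on 2 libraries. It was at 1.84, 7.55 and 0.518 CPM in EV_sphere, at 2.74, 8.92 and 3.14 CPM in UTX_sphere and at 1.19, 1.27 and 1.43 CPM in HEAA_sphere. Replicate 2 was far above the others in both EV_sphere and UTX_sphere. A chi-square of counts over all genes, per degree of freedom, was 11.8 and 11.7 for EV_sphere replicate 2 against the others of its group, and 5.63 between those. For UTX_sphere replicate 2 it was 4.04 and 3.66, and 2.16 between the others. Pairs within other groups reached higher values, 5.28 in UTX_full and 6.73 in HEAA_sphere. In EV_sphere replicate 2, 42 of 13618 genes lay at least 2-fold from both other libraries, against 25 and 21 in those. For UTX_sphere replicate 2 this was 32 of 13831 genes, against 20 and 30, so over all genes it hardly stood apart. The hypoxia-induced genes CA9, a carbonic anhydrase, and NDUFA4L2, a mitochondrial protein, were high in replicate 2 of EV_sphere and of UTX_sphere. CA9 was at 2.50, 12.9 and 0.486 CPM in EV_sphere and 1.23, 6.40 and 1.16 CPM in UTX_sphere. NDUFA4L2 was at 5.91, 14.2 and 2.40 CPM and at 1.75, 4.01 and 1.33 CPM. These genes were named after their values were seen.

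In the 2 libraries 29 and 13 genes lay at least 2-fold above both other replicates, 4 of them shared, of which CA9, LOXL2 and NDUFA4L2 carry a name. On a list of 16 hypoxia genes, chosen after seeing these data, 9 were highest in replicate 2 of EV_sphere and 12 in replicate 2 of UTX_sphere, while VEGFA, on the same list, was at 277 and 211 CPM there, the lowest of the 3 in both groups. In EV_sphere, ADM was at 77.2, 30.9 and 59.2 CPM and ANKRD37 at 16.9, 5.29 and 14.1 CPM, both lowest in replicate 2. In EV_full, where replicate 2 does not stand apart in LOXL2, 7 of the 16 were highest in replicate 2. LOX was highest in replicate 2 of EV_sphere and of UTX_sphere. The part of hypoxia in the LOXL2 values was not tested. Without both libraries LOXL2 in HEAA_sphere minus EV_sphere moved from -1.33 to 0.16 on the log2 scale, and HEAA by medium was -1.98 (edgeR, adjusted p = 0.00234).

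**Figure D2:**
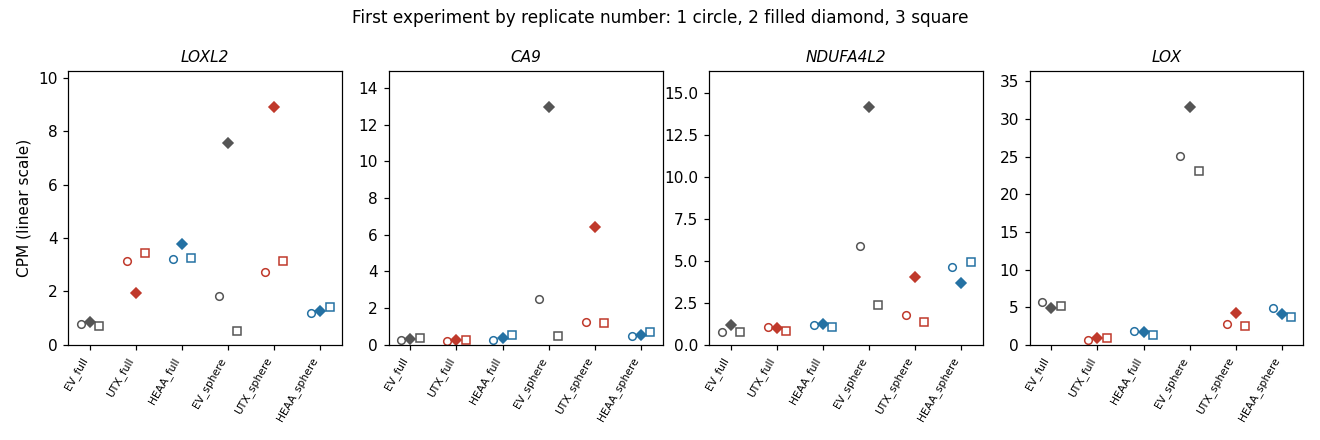
LOXL2, CA9, NDUFA4L2 and LOX in each library of the first experiment, in CPM on a linear scale, with symbols for the replicate numbers. The filled diamonds of replicate 2 stand above the other libraries in EV_sphere and UTX_sphere for LOXL2 (7.55 and 8.92 CPM), CA9 (12.9 and 6.40 CPM) and NDUFA4L2 (14.2 and 4.01 CPM).

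The medium changed the members in both directions: with each of the 3 vectors LOXL4 fell by 291-fold or more and LOX rose. Sphere medium differs from full medium in serum, B27, FGF2 and EGF together, and these cannot be told apart. With the empty vector 6 of 6 tested members passed, 3 higher and 3 lower in sphere medium, where 65.5% of all genes did. With UTX 5 of 6 passed, 2 higher and 3 lower, where 70.5% of all genes did. The falls of POSTN and FRAS1 with HEAA are given below as a description. All other members passed with HEAA, where 70.8% of all genes did. LOX and TNC were higher, and SPARC, MFAP5, LOXL1, LOXL2, LOXL3 and LOXL4 were lower.

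LOXL4 was at 0.234, 0.139 and 0.0647 CPM in EV_sphere (7, 4 and 2 counts), at 0.438, 0.512 and 0.516 CPM in UTX_sphere (11, 12 and 12 counts) and at 0.519, 0.212 and 0.390 CPM in HEAA_sphere (20, 5 and 12 counts). In full medium each of these cells had at least 40.4 CPM. The log2 fold changes were -8.19 ± 0.16 with the vector, -8.71 ± 0.11 with UTX and -9.04 ± 0.11 with HEAA (edgeR, adjusted p = 3.77e-21, 7.34e-24 and 3.13e-24), which are 291-fold, 419-fold and 526-fold. With such counts in sphere medium the counting error of the fold is wide, and wider than the ± values given here. The 95% counting interval of the ratio of sphere to full medium was 0.00178 to 0.00572 with the vector and 0.00133 to 0.0026 with HEAA.

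LOX rose in sphere medium by 2.35 ± 0.13 on the log2 scale with the vector, 1.97 ± 0.24 with UTX and 1.44 ± 0.19 with HEAA (edgeR, adjusted p = 6.89e-13, 1.94e-07 and 9.31e-07). LOXL1 and LOXL3 fell in all 3: LOXL1 by 1.24, 1.28 and 0.89 and LOXL3 by 2.62, 1.18 and 1.07 on the log2 scale, in the same order (edgeR, largest adjusted p 0.00575). LOXL2 passed with the vector (2.08 ± 0.63, adjusted p = 0.00636), and this was lost without EV_sphere replicate 2 (0.61, adjusted p = 0.338). With HEAA it fell from 3.41 ± 0.313 to 1.30 ± 0.119 CPM (-1.39 ± 0.59, adjusted p = 0.0399). That call was lost when any 1 library of those groups was left out (adjusted p up to 0.111) and with DESeq2 (0.0996), while the value stayed between -1.28 and -1.44 with each library left out. Without replicate 2 of EV_sphere and UTX_sphere, which lie outside this comparison but enter the estimate of the spread, it was -1.37 (adjusted p = 0.000146).

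TNC rose in sphere medium with UTX by 1.24 ± 0.05 on the log2 scale (edgeR, adjusted p = 7.54e-15), by 0.27 ± 0.07 with the vector (0.00279) and by 0.14 ± 0.05 with HEAA (0.0169), and only in the last of these did the libraries of the media overlap. In HEAA cells SPARC fell by 2.02 ± 0.15 on the log2 scale (edgeR, adjusted p = 1.43e-10) and MFAP5 fell by 4.43 ± 0.18 (2.25e-15). FRAS1 fell by 4.48 there, and POSTN went from 70 counts to 0, at least 24.9-fold lower. FRAS1 and POSTN passed the low-count filter only through UTX_full and HEAA_full, where they were high. Their falls with HEAA are therefore a description. Without a test, UTX cells had log2 fold changes of -1.55 for SPARC, -5.35 for MFAP5 and -5.58 for FRAS1, and at least 16.8-fold less POSTN. Vector cells had -1.66 for SPARC and -3.96 for MFAP5.

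The summed level of the 9 fibroblast markers moved with the medium, from 44.4 to 54.3 CPM in EV_full, 51.5 to 58.2 in UTX_full and 40.4 to 44.5 in HEAA_full to 12.2 to 13.9, 21.3 to 23.4 and 14.9 to 17.0 CPM in the matching sphere groups. The list did not move as one. LUM, which led it in full medium, was at 41.9, 44.6 and 33 CPM in EV_full, UTX_full and HEAA_full and at 1.05, 0.517 and 0.373 CPM in the matching sphere groups. COL1A1, which led it in sphere medium, went the other way, from 5.31, 8.2 and 7.41 CPM to 11.5, 21.5 and 15 CPM. COL3A1, a defining fibroblast collagen, was at 0.366 and 0.211 CPM in UTX_full and HEAA_full. It was at 0 counts in EV_full and in all 3 sphere groups. FAP was at 0.259, 1.17 and 0.773 CPM in EV_full, UTX_full and HEAA_full and at 0, 0 and 0.039 CPM in the matching sphere groups. The rest of the list stayed under 1 CPM in every group of this experiment. The 10 epithelial markers summed to 5390 to 7170 CPM in full and 9600 to 17900 CPM in sphere medium. The part of any cell type in the medium results was not tested.

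**Figure D3:**
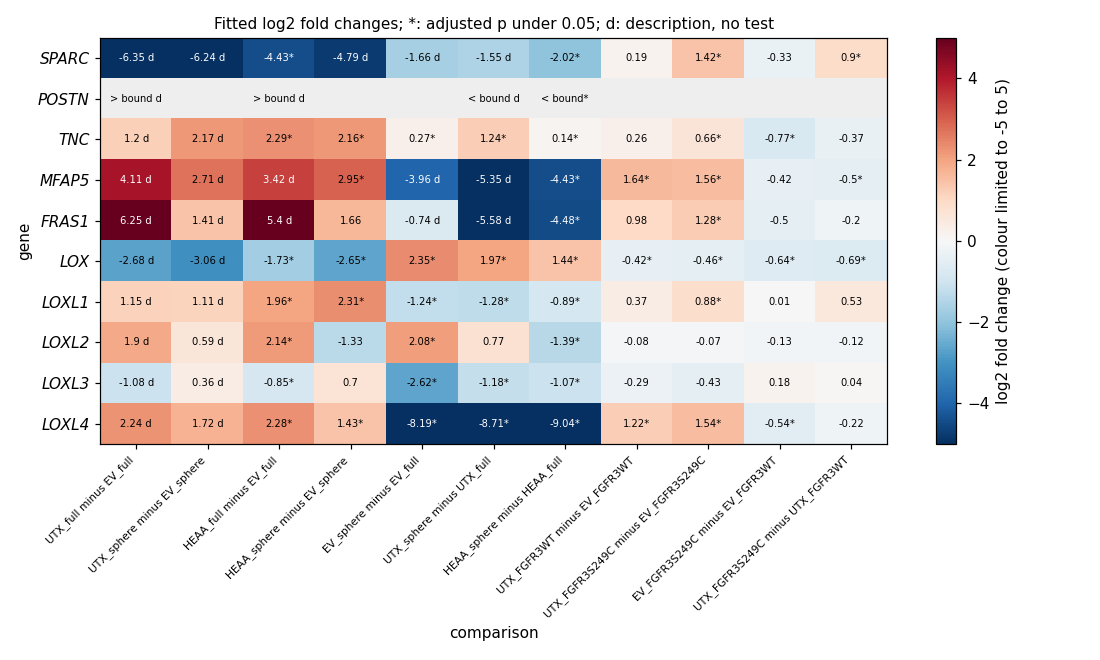
Fitted log2 fold changes of the 10 genes in 11 comparisons (colour scale limited to 5 either way), with a star for an adjusted p under 0.05 and d for a description without a test. POSTN has bounds only, and empty cells have no value. POSTN and FRAS1 passed the filter only through UTX_full and HEAA_full, so their stars in HEAA_sphere minus HEAA_full are a description. LOXL4 has the largest falls, -8.19 to -9.04, in sphere against full medium.

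The genes known to work with the members are given from 7 lists of related genes, drawn up with earlier results of these data known, without the members themselves. Beside each, the median log2 fold change over all genes tested was 0.03 for HEAA in full medium, -0.07 for the media with HEAA, and 0 and -0.01 for UTX beside the receptors. Of all genes tested, 23.2% passed as higher and 25.3% as lower with HEAA in full medium. There, 8 of 15 tested matricellular genes rose and 2 fell (median 0.45). Those 2 were SPP1, osteopontin, from 335 ± 25.3 to 25.1 ± 4.35 CPM (-3.74 ± 0.10, edgeR adjusted p = 3.49e-17) and TNN (-1.29). Of 13 microfibril and elastic fibre genes 7 rose and 2 fell (median 0.24), led by FBN1, fibrillin-1, from 4.96 ± 0.814 to 27.3 ± 1.13 CPM (2.46 ± 0.11, adjusted p = 4.87e-14). Of 10 genes around FRAS1 in the basement membrane 7 rose and 1 fell (median 0.82), among them COL7A1, anchoring-fibril collagen (1.12). Of 10 integrins and other receptors of these proteins 8 rose and 1 fell (median 0.52), led by ITGB6 (1.37). Of 20 collagen processing and crosslinking genes 11 rose and 5 fell (median 0.19), and of 8 fibrillar collagens 5 rose and 0 fell (median 0.54). Of 14 TGF-beta genes 5 rose and 3 fell (median 0.01).

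In sphere against full medium with HEAA, 12 of 15 matricellular genes fell and 1 rose (median -2.44). Of all genes tested, 34.4% passed as higher and 36.3% as lower there, the shares beside which the list counts stand. THBS1, thrombospondin-1, fell from 2990 ± 160 to 93.3 ± 4.67 CPM (-5 ± 0.09, edgeR adjusted p = 2.19e-21). CCN2 fell from 5.08 ± 0.129 to 0.0737 ± 0.037 CPM (-6.00), so the size of its fall rests on few counts in sphere medium. FBN1 fell by 5.01, and 7 of 13 microfibril genes fell while 6 rose (median -0.64). Of 14 TGF-beta ligands, receptors and targets, 6 rose and 6 fell (median 0.04), with TGFB2 at 28.4 ± 1.82 CPM in full and 0.0866 ± 0.0750 CPM in sphere medium. Of 20 collagen processing genes 5 rose and 9 fell (median -0.11), and P3H2, a prolyl hydroxylase, was at -2.94. Fibrillar collagens were split, 4 up and 4 down of 8. COL5A3 was higher by 6.91 on the log2 scale, at 0.0668 ± 0.0638 CPM in full and 8.75 ± 0.7 CPM in sphere medium. The size of that rise rests on few counts in full medium. Of 10 receptors, 3 rose and 5 fell (median -0.51), and of 10 basement membrane genes 4 rose and 6 fell (median -0.73), with HSPG2, perlecan, at -2.26.

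Within the lysyl oxidase family, levels were compared as CPM per kb of exon length, since longer transcripts give more counts. The length was that of all GENCODE v29 exons of a gene merged, not of the transcripts the cells expressed. The shares between the genes depend on that choice. The 5 genes summed to 13.7 ± 1.13 CPM per kb in EV_full, 57.6 ± 1.49 in UTX_full and 59.6 ± 2.62 in HEAA_full. In sphere medium the sums were 5.56 ± 1.48, 1.82 ± 0.816 and 1.53 ± 0.150. LOXL4 made up 87.1% ± 1.09 of the sum in EV_full, 97.9% ± 0.223 in UTX_full and 97.1% ± 0.236 in HEAA_full. In EV_sphere its share was 0.731% ± 0.462, and LOX made up 87.7% ± 8.26. In HEAA_sphere LOX made up 49.5% ± 5.21, with 19.6% ± 3.82 for LOXL1. In UTX_sphere LOXL2 had 44.4% ± 10.8 and LOX 33.0% ± 5.31, a group that holds 1 of the libraries with high LOXL2. These shares are a description, with no test.

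**Figure D4:**
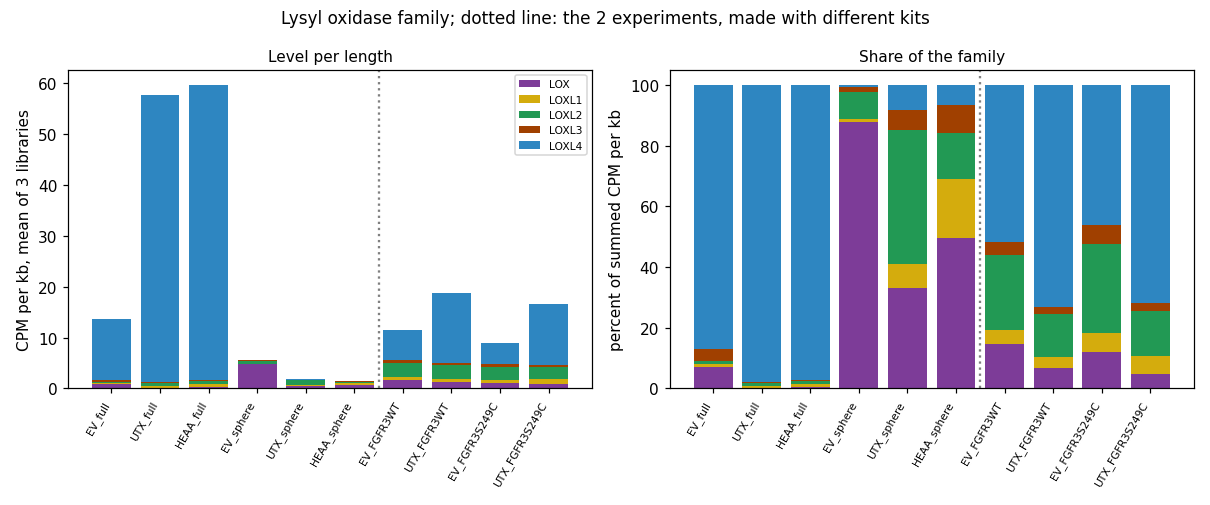
Lysyl oxidase family in all 10 groups, as mean CPM per kb of exon length (left) and as the percent of the summed CPM per kb (right). LOXL4 makes up 87.1% to 97.9% in full medium of the first experiment and 0.731% to 8.16% in sphere medium.

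In the second experiment, made with another library kit (NEBNext Ultra II in place of TruSeq), UTX was again compared with the empty vector, now beside wild type FGFR3 or S249C, and levels are not compared across the experiments. The libraries UTX_FGFR3S249C replicate 3 and EV_FGFR3S249C replicate 1 stood apart from the others of their groups. A chi-square of counts over genes, per degree of freedom, was 9.99 and 11.6 for the first and 11.1 and 11.3 for the second against the other libraries of the group, and 2.03 and 3.91 between those others. In the first, 73 of 15032 genes lay at least 2-fold from both other libraries, against 29 and 23 in those, and in the second 46 of 15044, against 37 and 20. KDM6A was at 941.1, 946.4 and 699.6 CPM in UTX_FGFR3S249C.

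MFAP5 and LOXL4 rose and LOX fell with UTX beside both receptors, and SPARC rose beside S249C. Beside wild type FGFR3, 3 of 9 members passed, 2 higher and 1 lower, where 15.1% of 19399 genes did. Beside S249C 7 of 9 passed, 6 higher and 1 lower, where 21.5% of all genes did. Without both libraries that stood apart, an alternative chosen after seeing the data, 6 members passed with UTX beside S249C, all but FRAS1 of the 7. SPARC there was 1.45 (adjusted p = 6.81e-06) and its interaction with the receptor 1.26 (adjusted p = 0.00612). FGFR3 itself was at 1301 ± 74.9 and 1243 ± 47.4 CPM with the wild type vector and at 2322 ± 110 and 2588 ± 44.3 CPM with S249C, so the form of the receptor and its level cannot be told apart.

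LOXL4 was at 21.4, 22.4 and 21.4 CPM in EV_FGFR3WT and 52.4, 48.8 and 50.6 CPM in UTX_FGFR3WT. With S249C it was at 14.1, 13.5 and 17.2 CPM without and 46.5, 42.0 and 42.0 CPM with UTX. The rise was 1.22 ± 0.07 on the log2 scale beside wild type FGFR3 and 1.54 ± 0.08 beside S249C (edgeR, adjusted p = 3.34e-08 and 4.50e-09), and the difference between the rises did not pass (0.32 ± 0.11, adjusted p = 0.269). MFAP5 was at 3.28, 3.63 and 2.96 CPM without and 10.9, 9.97 and 9.98 CPM with UTX beside wild type FGFR3. Beside S249C it was at 2.86, 2.10 and 2.42 CPM without and 6.87, 7.33 and 7.66 CPM with UTX. It rose by 1.64 ± 0.11 and 1.56 ± 0.12 (edgeR, adjusted p = 1.31e-07 and 3.00e-07), with an interaction of -0.08 ± 0.17 (adjusted p = 0.907).

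LOX was at 9.57, 9.25 and 9.19 CPM in EV_FGFR3WT, 7.61, 7.13 and 6.28 in UTX_FGFR3WT, 5.34, 5.91 and 6.65 in EV_FGFR3S249C and 4.19, 4.37 and 4.45 in UTX_FGFR3S249C. It fell with UTX by 0.42 ± 0.10 and 0.46 ± 0.10 (edgeR, adjusted p = 0.00869 and 0.00551), beside wild type FGFR3 and S249C. The first call was lost without UTX_FGFR3WT replicate 3 (-0.34, adjusted p = 0.0563).

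SPARC was at 3.97, 3.21 and 3.23 CPM in EV_FGFR3WT and 4.41, 3.49 and 3.90 CPM in UTX_FGFR3WT, which overlapped (0.19 ± 0.13, edgeR adjusted p = 0.401). Beside S249C it was at 2.59, 2.66 and 2.99 CPM without UTX and 7.60, 7.80 and 6.74 CPM with it, all 3 higher. That is a rise of 1.42 ± 0.12 (adjusted p = 1.04e-06). SPARC was the 1 of 9 members whose response to UTX differed between the receptors (interaction 1.24 ± 0.18, adjusted p = 0.00486), where 0.686% of all genes did. In EV_full of the first experiment SPARC was at 90.5 ± 3.40 CPM and lower with UTX, the opposite direction, with another vector and kit and no FGFR3 vector, and this contrast between experiments was not tested.

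TNC was at 58.5, 65.3 and 58.2 CPM in EV_FGFR3WT, 77.6, 75.1 and 65.2 in UTX_FGFR3WT, 28.3, 35.6 and 42.8 in EV_FGFR3S249C and 59.5, 59.7 and 49.7 in UTX_FGFR3S249C. It rose with UTX beside S249C (0.66 ± 0.12, edgeR adjusted p = 0.000865), and beside wild type FGFR3 the groups overlapped (0.26 ± 0.11, adjusted p = 0.152). The interaction did not pass (0.40 ± 0.16, adjusted p = 0.385), so a difference between the receptors is not shown. LOXL1 rose beside S249C from 1.93 ± 0.256 to 3.56 ± 0.198 CPM (0.88 ± 0.15, adjusted p = 0.000574). FRAS1 rose from 0.346 ± 0.0965 to 0.849 ± 0.305 CPM (1.28 ± 0.43, adjusted p = 0.0454), on 27 against 70 counts. This call was lost on leaving out any 1 of 5 libraries of those groups, all but UTX_FGFR3S249C replicate 3 (adjusted p between 0.053 and 0.181). LOXL2, at 13 to 17.8 CPM in all 12 libraries, and LOXL3 did not pass with either receptor.

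**Figure D5:**
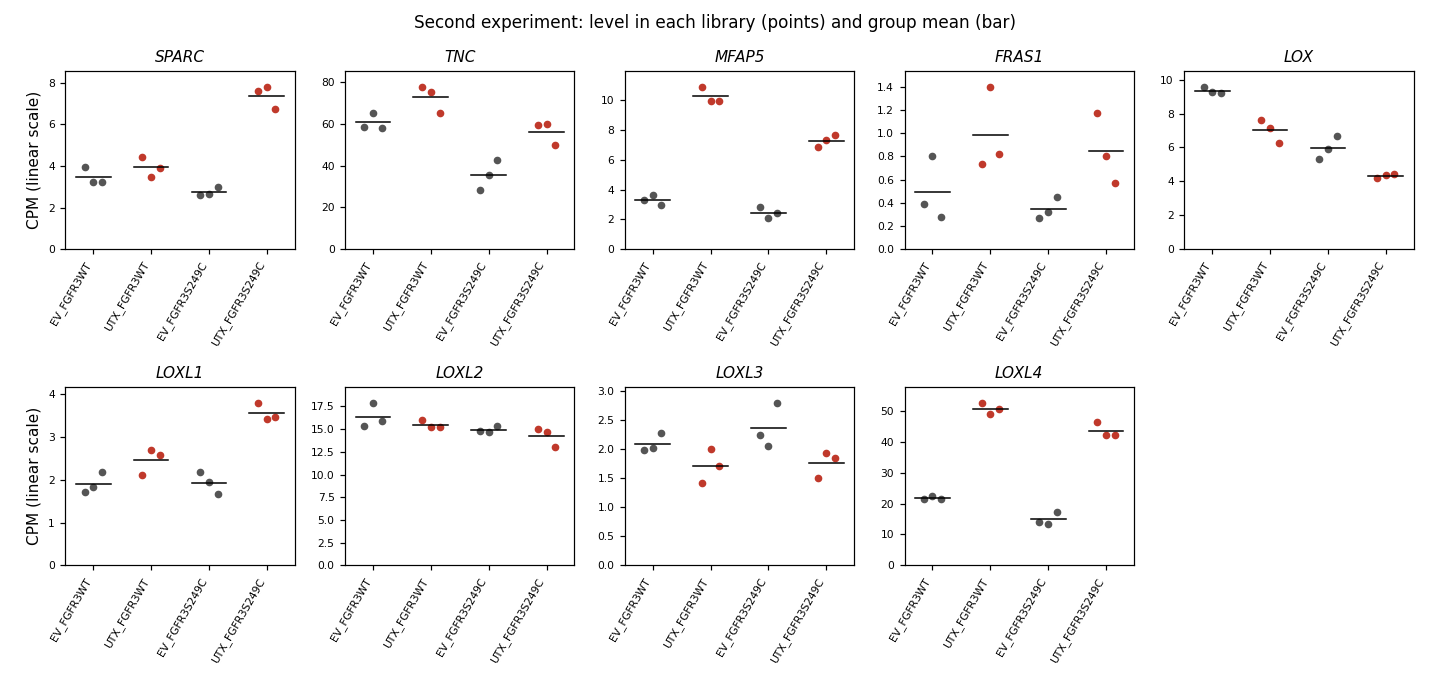
Level of the 9 genes in every library of the second experiment, in CPM on a linear scale from 0, with group means as bars (grey EV, red UTX). LOXL4 and MFAP5 are higher with UTX beside both receptors, and SPARC at 6.74 to 7.80 CPM stands apart in UTX_FGFR3S249C.

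S249C against wild type FGFR3 lowered 3 of 9 members in vector cells and raised 0, where 10.8% of all genes passed. They were TNC (-0.77 ± 0.12, edgeR adjusted p = 0.000696), LOX (-0.64 ± 0.10, adjusted p = 0.000707) and LOXL4 (-0.54 ± 0.08, adjusted p = 0.000605). In UTX cells 3 of 9 members passed, 1 higher and 2 lower, where 3.05% of all genes did. SPARC was higher with S249C (0.90 ± 0.12, adjusted p = 0.000529), LOX was lower (-0.69 ± 0.10, adjusted p = 0.00156), and MFAP5 was lower (-0.50 ± 0.10, adjusted p = 0.0153). Without the 2 libraries that stood apart these 3 passed again in UTX cells, and in vector cells MFAP5 passed besides the 3 named (-0.54, adjusted p = 0.0221). The MFAP5 call in UTX cells was lost on leaving out UTX_FGFR3WT replicate 1 or 2 or UTX_FGFR3S249C replicate 1 or 2 (adjusted p between 0.0542 and 0.091).

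Among related genes of the second experiment, TLL2, on the list of collagen processing and crosslinking genes, rose with UTX beside both receptors. It went from 1.62 ± 0.298 to 8.84 ± 0.554 CPM beside wild type FGFR3 (2.44 ± 0.14, edgeR adjusted p = 2.51e-08). Beside S249C it went from 2.14 ± 0.357 to 7.24 ± 0.451 CPM (1.75 ± 0.14, adjusted p = 3.43e-07). SPP1 fell by 1.81 ± 0.07 and 1.36 ± 0.06 and FBN2, fibrillin-2, by 1.62 ± 0.1 and 1.1 ± 0.09. LTBP3, a latent TGF-beta binding protein, rose by 0.92 ± 0.06 and 1.00 ± 0.06. Of all genes tested, 9.06% passed as higher and 6.01% as lower with UTX beside wild type FGFR3. Beside S249C these shares were 12.9% and 8.62%. By list, 4 of 12 matricellular genes rose and 2 fell beside wild type FGFR3 (median 0.18), and 4 rose and 3 fell beside S249C (median 0.07). Of 9 basement membrane genes 5 rose beside each receptor and 1 and 0 fell (median 0.20 in both), and of 11 receptors 4 rose and 1 fell, then 6 rose and 0 fell (medians 0.28 and 0.27). Of 21 collagen processing genes 3 rose and 2 fell, then 4 rose and 1 fell (medians 0.05 and 0.02). For S249C in vector cells, 4 of 14 TGF-beta genes and 3 of 9 basement membrane genes were lower and 0 higher (median -0.10 in both). Of all genes 6.45% were lower and 4.31% higher there. In the other 5 lists 0 to 2 genes passed in either direction. TNN, tenascin-N, was lower (-1.57 ± 0.13, adjusted p = 4.79e-06) and TGM2, a crosslinking transglutaminase, higher (0.66 ± 0.05, adjusted p = 7.47e-07).

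The shares of LOXL4 in the family were 51.7% ± 0.525 in EV_FGFR3WT and 73.3% ± 0.945 in UTX_FGFR3WT, and 46.1% ± 2.27 and 71.9% ± 0.975 with S249C. LOXL2 came next, with 24.9% ± 1.22, 14.4% ± 0.0952, 29.6% ± 1.71 and 15% ± 0.757 in the order of the groups above. The family summed to 11.5 ± 0.357, 18.9 ± 0.471, 8.86 ± 0.735 and 16.6 ± 0.815 CPM per kb.

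As a description of how the members varied together, log2 CPM over the 18 libraries of the first experiment gave Pearson r = 0.97 between POSTN and FRAS1, 0.94 between MFAP5 and FRAS1, 0.92 between MFAP5 and LOXL4 and -0.89 between MFAP5 and LOX. Over the 12 libraries of the second, MFAP5 and LOXL4 had r = 0.98. These libraries share their 6 or 4 group means, which set most of such values. For the members that spanned at least 8-fold, the genes with a mean of at least 2 CPM that were most like them over the 18 libraries were COMTD1 for SPARC (r = 0.986), PLCD3 for MFAP5 (0.994), TNK2 for POSTN (0.982) and FRAS1 (0.972), PHGDH for LOX (0.981), MIR31HG for LOXL1 (0.914) and SOX4 for LOXL4 (0.996). Over the 12 libraries the same pairs had r = 0.02 for COMTD1, 0.92 for PLCD3, 0.46 for TNK2 with FRAS1, 0.71 for PHGDH, 0.79 for MIR31HG and 0.83 for SOX4. CPNE1, level with PLCD3 at r = 0.994 with MFAP5 over the 18 libraries, had r = -0.7 over the 12.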

How the data were processed

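RNA-seq libraries of UMUC1 cells were deposited as 2 tables of estimated counts per gene, whole numbers made by the authors with Salmon 0.8, per the submitters' processing notes, which also name DESeq2 and the hg19 build. The sources used here give neither the annotation release nor the strand setting. Each experiment was fitted apart with edgeR 4.0.16 in R 4.3.3 (filterByExpr, TMM factors, 1 mean per group, quasi-likelihood test), with Benjamini-Hochberg adjustment over all 19629 and 19399 genes tested and a threshold of 0.05. The script was tested on simulated data. Errors of log2 fold changes are approximate: the size of the change divided by the square root of the test's F statistic. They are not standard errors of the fitted coefficients and can be too narrow at few counts. Counting intervals are exact at 95%. All 10 and 9 members passed the filter. In the first experiment POSTN and FRAS1 did so only through UTX_full and HEAA_full. The members, the lists of related genes and the comparisons were chosen with earlier results of these data known. Genes of a list were named from the 2 that passed with the largest changes among those with a mean of at least 2 CPM, and a gene so selected is not reported here. The POSTN bounds use a floor of 3 counts over a group. Alternatives were RLE size factors, no filter, DESeq2 1.42.0, only the groups compared, a replicate block and leaving out each library and, chosen after seeing the data, the libraries that stood apart.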

Additional observations from a re-analysis of the deposited data

Results flagged for a closer look

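The response to HEAA differed between the media, by the interaction term of edgeR's fit, for LOX (-0.91 on the log2 scale, adjusted p = 0.00601), LOXL2 (-3.47, adjusted p = 0.00347) and LOXL3 (1.55, adjusted p = 0.00152). The LOXL2 value was -1.98 without the replicate 2 libraries of EV_sphere and UTX_sphere. The response of SPARC to UTX differed between the FGFR3 forms by 1.24 (adjusted p = 0.00486).

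In 2 pairs of contrasts the groups lay in opposite directions without overlap, and these differences were not tested. LOXL3 was at -1.08 with UTX in full medium and at 0.36 in sphere medium. SPARC was at -6.35 with UTX in full medium of the first experiment and at 1.42 with UTX beside S249C in the second, with other vectors and another kit. For S249C against wild type FGFR3, where the groups also lay in opposite directions, SPARC was at -0.33 in vector cells and 0.90 in UTX cells, and the difference between these is the interaction of 1.24 given above.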

How the results depend on the processing

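Counts of members past the threshold were taken with each library left out in turn. They ranged from 7 to 7 for HEAA_full minus EV_full, 4 to 6 for HEAA_sphere minus EV_sphere and 2 to 4 for UTX_full minus HEAA_full. They were 1 to 2 for UTX_sphere minus HEAA_sphere, 5 to 6 and 5 to 5 for sphere against full medium with EV and UTX, and 3 to 3 for HEAA by medium. For sphere against full medium with HEAA, LOXL2 was the only tested member whose call was lost. In the second experiment these counts ranged from 2 to 4 and 6 to 7 for UTX beside wild type FGFR3 and S249C. They were 3 to 4 and 2 to 3 for S249C in vector and UTX cells, and 1 to 2 for UTX by FGFR3. With only the groups compared, HEAA_sphere minus EV_sphere had 3 members against 5, with fewer samples behind the spread, and TNC passed with UTX beside wild type FGFR3 (adjusted p = 0.00848). Signs turned on leaving out 1 library for these differences, which had not passed or had no test: LOXL2 in HEAA_sphere minus EV_sphere (-1.83 to 0.16) and, untested, in UTX_sphere minus EV_sphere (-0.16 to 2.06), TNC (-0.04 to 0.02) and MFAP5 (-0.47 to 0.07) in UTX_sphere minus HEAA_sphere, LOXL1 (-0.09 to 0.11) and FRAS1 (-0.79 to 0.07) for S249C in vector cells, FRAS1 (-0.5 to 0.13) and LOXL3 (-0.07 to 0.17) in UTX cells, and FRAS1 (-0.27 to 0.63), LOXL2 (-0.05 to 0.07), LOX (-0.12 to 0.04), MFAP5 (-0.17 to 0.05) and LOXL3 (-0.24 to 0) in UTX by FGFR3. An alternative chosen after seeing the data left out both libraries with high LOXL2: LOXL2 in HEAA_sphere minus EV_sphere was then 0.16 (adjusted p = 0.769), LOXL4 there was 1.41 (0.0575), LOXL2 in EV_sphere minus EV_full was 0.61 (0.154), and LOX passed in UTX_sphere minus HEAA_sphere (-0.69, 0.00362). Another such alternative left out both S249C libraries that stood apart: FRAS1 with UTX beside S249C was then 1.34 (0.0713), and signs turned for LOXL1 in vector cells (-0.09) and FRAS1 in UTX cells (0.02) with S249C, and for MFAP5 in UTX by FGFR3 (0), none of which had passed. Without the filter LOXL2 passed in HEAA_sphere minus EV_sphere (-1.3, 1.45e-10) and UTX_sphere minus UTX_full (0.84, 2.08e-06), and LOX in UTX_sphere minus HEAA_sphere (-0.42, 0.0252). With DESeq2 the TNC difference of S249C in UTX cells passed (-0.37, 0.0327). The cause was not tested. Over all genes, same-numbered libraries did not deviate together (mean correlation -0.01 and 0, over 0.1 in 0 of 45 and 1 of 18 pairs). A correlation over all genes does not decide whether some of them were handled together. Replicate 2 of EV_sphere and of UTX_sphere shared 4 genes that stood apart, LOXL2 among them. A replicate block changed no call of a member, and moved the count of all genes in UTX by FGFR3 from 133 to 80, against 196 with DESeq2. Few counts limit POSTN, and FRAS1, MFAP5, LOXL1, LOXL3 and LOXL4 in sphere medium.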
